A study of Arabidopsis thaliana with 8 samples.

Results

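The transcript response of Arabidopsis thaliana roots to 2,5-dimethylpyrazine, called 2,5-D, was examined in the 4 root libraries among the 8 libraries of the series. Both 2,5-D libraries were set against both water libraries, gene by gene, and the genes were then read by functional family. Of 3691 genes listed in the root table, 3487 had a mean value of at least 1 over the 4 root libraries and were tested, and the other 204 were below that filter.

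All plants were wild type of the ecotype Col-0. The roots called 2,5-D roots below came from plants given 100 µM of the compound as a volatile, on a paper disc in a divided plate. The roots called water roots came from plants with sterile water on the disc. Both groups carry a time of 24 hours in the labels, whose protocols also name 14 days in the shared plates up to harvest, so how long plants met the compound is unclear. Each group had 2 libraries of whole roots, made from total RNA, and nothing in the labels says that they came from separately grown plants. P-values therefore reflect only how far these libraries differ, and that may be technical. In whole roots, fewer cells of a type and less RNA per cell cannot be told apart.

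2,5-D is a small volatile ring compound of the pyrazine class that bacteria and other microbes release, and plants in a divided plate meet it as a vapour. Plant cells commonly deal with foreign small molecules in stages: oxygenases and reductases alter them, transferases attach glutathione or sugar, and exporters move the products into the vacuole or out of the cell. Roots also read microbes through receptor kinases, calcium sensors and WRKY, NAC, MYB and ERF transcription factors, and they adjust growth through cell wall enzymes, aquaporins and vascular development.

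Values are the authors' normalized expression signal, whose unit was not given in the sources used here. A log2 change is 2,5-D over water on the scale of log2(value + 1), so that changes of weakly expressed genes come out too small. A gene was said to rise or fall where limma's moderated test gave an adjusted p under 0.05 by the Benjamini-Hochberg method over all tested genes, and every adjusted p below is from that fit unless stated. The genes described one by one were picked by a rule. Within each list, and outside all lists, they were the called genes with the largest changes whose mean reached 2 and whose groups did not overlap. Phytosulfokine precursors and cell type markers were added apart from that rule. For genes picked by it, the lack of overlap stated below was fixed in advance, and 82.8% of all listed genes showed it. The 153 named genes that were called had an adjusted p of at most 0.0357. Where a named gene loses its call, or a count of at least 4 moves by over 1.5 times, the setting is named, and smaller counts often moved as well; a fit that leaves out a 2,5-D library has only the water pair to give its spread.

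Most tested genes passed that threshold, so each family below has to be read against a high background. Of 3487 tested genes, 2143 were called (61.5%), with 1360 higher (39%) and 783 lower (22.5%) in 2,5-D roots. A log2 change of at least 1 in size was found together with the call in 460 higher genes (13.2%) and 223 lower genes (6.4%). The median log2 change over all tested genes was 0.26. When every library was shifted to the same median, all changes moved by -0.11, and 1042 genes were higher and 897 lower. The background itself was selected: the root groups did not overlap in 3056 of the listed genes (82.8%), and the groups overlapped in both root and shoot in 2 of them, so the table is treated as a list picked on these same libraries, and its calls are no independent evidence of a response.

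**Figure D1:**
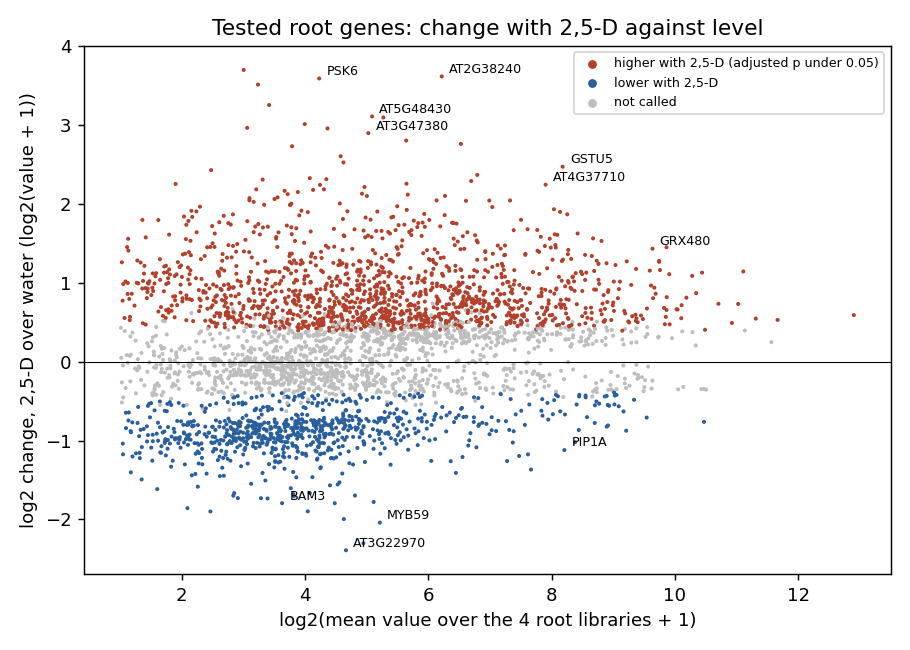
Each point is a tested root gene, with its level (log2 of the mean value over the 4 root libraries plus 1) on the x axis and its log2 change, 2,5-D over water, on the y axis. Genes called higher (1360) and lower (783) occur at all levels, and the largest rises, up to 3.70, exceed the largest falls, down to -2.39.

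Libraries of a group were close to each other. Across tested genes the log2 values correlated at r = 0.995 within the 2,5-D pair and r = 0.986 within the water pair, and 2 and 32 genes were over 2-fold apart in the 2,5-D pair and in the water pair. The values summed to 343912 and 328345 in the 2,5-D libraries, against 270237 and 252870 in the water libraries. Gene length moved with the change: over 4 equal classes of exonic length, from the shortest genes to the longest, the median log2 changes were 0.35, 0.49, 0.33 and -0.04, and the shares called higher were 45.4%, 53.3%, 39.6% and 17.7%. With that trend removed in each library, 934 genes were higher and 1004 lower. The part of gene length in the results below was not tested, so medians with the trend removed are given where they change the reading.

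**Figure D2:**
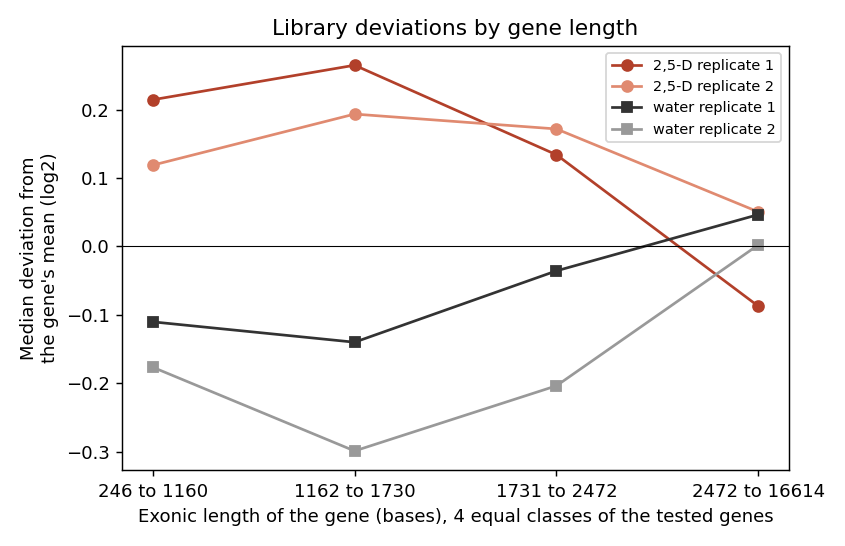
Lines give, for each of the 4 root libraries, the median deviation from the gene's own mean (log2, y axis) over the tested genes in each of 4 equal classes of exonic length (bases, x axis). The 2,5-D libraries lie above the water libraries in the 3 shorter classes, and in the longest class 2,5-D replicate 1 (-0.09) lies below both water libraries.

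The 34 functional lists, built from product names of the reference annotation, differed in the direction of their calls. The shares called higher were above the background in, among others, the lists of transcription factors, signal peptides, glutathione transferases, 2-oxoglutarate-dependent oxygenases, late embryogenesis abundant (LEA) proteins and mitochondrial stress genes. Shares called lower were above it for, among others, laccases and lignin enzymes, pectin enzymes, cellulose and hemicellulose enzymes, aquaporins, and sugar and amino acid carriers. Some lists were above the background in both directions, such as UDP-glycosyltransferases, cytochromes P450, and bHLH, C2H2 zinc finger and homeodomain factors. Ribosomal proteins held no gene called higher. These counts are for lists from which 156 matches were dropped after the first counts had been seen, some of them accidents of spelling and others genes judged to belong to another family, such as LEA hydroxyproline-rich glycoproteins and major facilitator carriers. The 7 lists that lost at least 7 matches had the following counts as first matched. Osmolyte and LEA genes gave 37 higher and 9 lower of 69 (53.6% higher), antimicrobial and lectin genes 31 higher and 18 lower of 64, homeodomain genes 12 higher and 9 lower of 24, and genes of histones and cell division 6 higher and 13 lower of 37. Sugar and amino acid carriers gave 11 higher and 21 lower of 49, metal and ion carriers 16 higher and 15 lower of 47, and structural wall proteins 29 higher and 10 lower of 49.

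**Figure D3:**
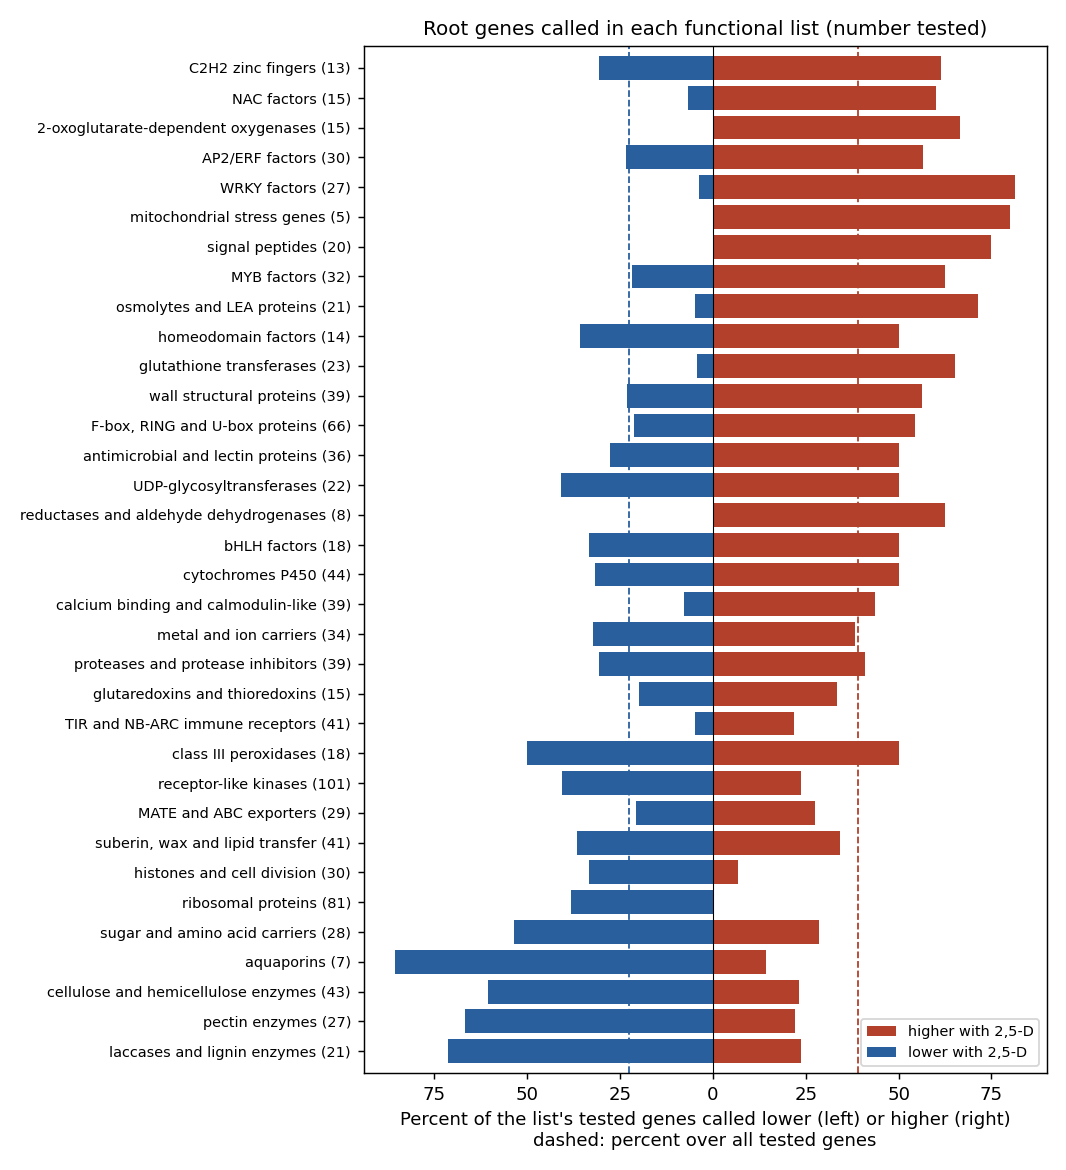
Bars give the percent of each list's tested genes called lower (left, blue) and higher (right, red) in 2,5-D roots, ordered by the list's median log2 change, with the number tested in brackets. Dashed lines mark the background over all tested genes, 22.5% lower and 39% higher.

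Among enzymes that modify foreign compounds, most tau class glutathione transferases rose in 2,5-D roots. Glutathione transferases join the tripeptide glutathione to reactive molecules. Of 23 tested, 15 rose and 1 fell, a share higher of 65.2%, with a median log2 change of 0.55. That median was 0.24 with the length trend removed, beside 0.10 over all tested genes, and the counts were then 11 higher and 4 lower. The tau class, which is specific to plants, gave 12 higher and 1 lower of 18, and the phi class 2 higher and 0 lower of 4. The phi count did not hold: 0 were higher without 2,5-D replicate 1 or without 2,5-D replicate 2, 1 was higher in each of the other settings except the pseudocount of 0.1, and 1 was lower once the length trend was removed or without water replicate 1. GSTU5 (AT2G29450) had 498 and 479.7 in 2,5-D roots, against 102 and 75.3 in water roots (log2 change 2.47, SE 0.18, adjusted p = 3.34e-05). Its neighbour by name, GSTU3 (AT2G29470), had 20.6 and 20.2 in 2,5-D roots, against 4.34 and 3.53 in water roots (log2 change 2.12, SE 0.16, adjusted p = 3.65e-05). Both stood well above water in each 2,5-D library, with no overlap of the groups. The single member that fell was GSTU23 (AT1G78320), with 10.8 and 11 in 2,5-D roots, against 21.6 and 27.2 in water roots (log2 change -1.08). Members of this family are close copies, and how the authors' counting treated shared reads was not given in the sources used here, so the split between them is uncertain.

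The families of sugar transfer and oxidation were divided. UDP-glycosyltransferases, which attach sugars to small molecules, gave 11 higher and 9 lower of 22, and cytochromes P450, which oxidize them, gave 22 higher and 14 lower of 44 (9 more were below the filter). UGT73B2 (AT4G34135), a glucosyltransferase that accepts flavonols, had 55.1 and 45.6 in 2,5-D roots, against 9.11 and 11 in water roots (log2 change 2.21, SE 0.17, adjusted p = 3.73e-05). UGT76E1 (AT5G59580) had 22.4 and 23.8 in 2,5-D roots, against 5.19 and 3.75 in water roots (log2 change 2.15). In both genes the lower 2,5-D library was over the higher water library by a wide margin. On the other side, AT5G05890, a family member with no symbol in the reference, had 8.23 and 9.57 in 2,5-D roots, against 21.3 and 21.8 in water roots (log2 change -1.19). The water libraries were less alike for AT2G18570, another family member, which had 6.3 and 5.36 in 2,5-D roots, against 9.92 and 18.9 in water roots (log2 change -1.12), and its lower water library was still above both 2,5-D libraries.

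CYP81D11 (AT3G28740) was the P450 with the largest rise among those named, at 14.9 and 10.7 in 2,5-D roots, against 2.14 and 2.49 in water roots (log2 change 2.04, SE 0.19, adjusted p = 7.48e-05). CYP94B1 (AT5G63450), which oxidizes the active jasmonate conjugate jasmonoyl-isoleucine, had 47.6 and 48.5 in 2,5-D roots, against 16.4 and 9.98 in water roots (log2 change 1.83, SE 0.22, adjusted p = 0.000211). Against these, CYP71A27 (AT4G20240) fell, with 9.51 and 10.1 in 2,5-D roots, against 24.8 and 28 in water roots (log2 change -1.34). CYP82F1 (AT2G25160) also fell and had 4.88 and 7.11 in 2,5-D roots, against 15 and 14.8 in water roots (log2 change -1.2). The groups overlapped in none of these 4 genes. UDP-glycosyltransferases called higher numbered 7 without 2,5-D replicate 2 or with a filter at a mean of at least 5. Cytochromes P450 called higher numbered 12 without 2,5-D replicate 1 and 11 without 2,5-D replicate 2. Cytochromes P450 called lower numbered 6 without 2,5-D replicate 1. AT2G18570 missed the threshold without 2,5-D replicate 2 (adjusted p = 0.0589).

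Exporters of the MATE and ABC families, which carry small molecules across membranes, showed no common direction: 8 rose and 6 fell of 29, with a median log2 change of -0.05 that was 0.06 with the length trend removed. DTX50 (AT5G52050), a MATE carrier, was abundant and rose, with 373 and 359 in 2,5-D roots, against 162 and 137 in water roots (log2 change 1.29, SE 0.16, adjusted p = 0.00032). ABCB9 (AT4G18050) had 19.1 and 16.6 in 2,5-D roots, against 9.66 and 7.26 in water roots (log2 change 1.0). The MATE gene AT4G22790 had 1.55 and 1.27 in 2,5-D roots, against 4.96 and 6.16 in water roots (log2 change -1.44). ABCB19 (AT3G28860), which moves auxin out of cells, fell: it had 13.9 and 19.9 in 2,5-D roots, against 29.4 and 28.6 in water roots (log2 change -0.77), and its 2,5-D libraries were the less alike pair. MATE and ABC exporters called higher numbered 2 without 2,5-D replicate 1 or without 2,5-D replicate 2, 4 with equal medians and 5 with a filter at a mean of at least 5. MATE and ABC exporters called lower numbered 2 without 2,5-D replicate 1, 3 without 2,5-D replicate 2 and 10 with equal medians. ABCB19 missed the threshold without 2,5-D replicate 1 (adjusted p = 0.101).

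Reductases and 2-oxoglutarate-dependent oxygenases had no gene called lower, though 1 reductase was called lower once the length trend was removed, with the replicate block, without water replicate 1 and without 2,5-D replicate 1. Of 8 reductases and aldehyde dehydrogenases, 5 rose and 0 fell, and of 15 oxygenases, 10 rose and 0 fell, with a median of 0.78. OPR1 (AT1G76680), a reductase named for the jasmonate precursor it can act on, had 479.9 and 476 in 2,5-D roots, against 137 and 124 in water roots (log2 change 1.87, SE 0.16, adjusted p = 4.98e-05). AER (AT5G16970), which reduces reactive alkenals formed from oxidized lipids, had 19.1 and 18.8 in 2,5-D roots, against 7.53 and 8.51 in water roots (log2 change 1.15, SE 0.15, adjusted p = 0.000417). For both, the replicates nearly coincided within each group. AT2G38240, an oxygenase with no symbol in the reference, had 121 and 151 in 2,5-D roots, against 12.9 and 7.95 in water roots (log2 change 3.62, SE 0.22, adjusted p = 1.43e-05), among the largest changes of the table. Its relative AT5G05600 had 409.7 and 421 in 2,5-D roots, against 116 and 101 in water roots (log2 change 1.93, SE 0.16, adjusted p = 4.78e-05). Even the lower 2,5-D library of AT2G38240 was far above both water libraries. Product names of both oxygenases give no substrate. Whether they act on foreign compounds or on the plant's own is not known from these data. Reductases and aldehyde dehydrogenases called higher numbered 2 without 2,5-D replicate 1 or without 2,5-D replicate 2 or with equal medians or once the length trend was removed. 2-oxoglutarate-dependent oxygenases called higher numbered 6 without 2,5-D replicate 2.

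Redox carriers split by member, while most of the few mitochondrial stress genes in the table were higher. Of 15 glutaredoxins and thioredoxins, 5 rose and 3 fell, near the background. Its most abundant named member was GRX480 (AT1G28480), a glutaredoxin that binds TGA transcription factors, with 1179.6 and 1139.6 in 2,5-D roots, against 439.9 and 419 in water roots (log2 change 1.43, SE 0.15, adjusted p = 0.000129). TRX5 (AT1G45145), the thioredoxin that reduces the immune regulator NPR1, had 643 and 575 in 2,5-D roots, against 215 and 196 in water roots (log2 change 1.56, SE 0.16, adjusted p = 0.000112). Both were high in water roots already and higher in each 2,5-D library. TRXF1 (AT3G02730), a plastid thioredoxin, fell, with 11.2 and 9.48 in 2,5-D roots, against 16.9 and 17.5 in water roots (log2 change -0.69). TXND9 (AT2G18990) fell as well and had 19.1 and 19 in 2,5-D roots, against 27.2 and 32.4 in water roots (log2 change -0.62). Of 15 mitochondrial stress loci chosen, 5 were in the table, and 4 of them rose, beside 39% of all tested genes. A locus that did not change could be missing, since the table is treated as a list picked on these same libraries. AOX1A (AT3G22370), the alternative oxidase that bypasses part of the respiratory chain, had 95.3 and 90.7 in 2,5-D roots, against 41.5 and 39.6 in water roots (log2 change 1.18, SE 0.16, adjusted p = 0.000376). UGT74E2 (AT1G05680), which glucosylates the auxin indole-butyric acid, was near the filter, with 3.39 and 3.52 in 2,5-D roots, against 0.96 and 1.59 in water roots (log2 change 0.98). Glutaredoxins and thioredoxins called higher numbered 2 without 2,5-D replicate 1 or without 2,5-D replicate 2 and 3 with equal medians or once the length trend was removed. Mitochondrial stress genes called higher numbered 2 without 2,5-D replicate 1 or once the length trend was removed. TRXF1 missed the threshold without 2,5-D replicate 2 (adjusted p = 0.0579). TXND9 missed the threshold without 2,5-D replicate 1 (adjusted p = 0.0778) and without 2,5-D replicate 2 (adjusted p = 0.0757).

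Transcription factor families were more often higher than the background. WRKY factors, which bind W-box elements in defence and stress genes, stood out by count: of 27 tested, 22 rose (81.5%) and 1 fell, with a median log2 change of 0.69. NAC factors, plant-specific regulators of stress and senescence genes, gave 9 higher and 1 lower of 15, with a median of 0.85. MYB factors gave 20 higher and 7 lower of 32, with a median of 0.63. With the length trend removed the medians were 0.53 for WRKY, 0.65 for NAC and 0.36 for MYB, beside 0.10 over all tested genes.

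WRKY28 (AT4G18170) had 18.6 and 21 in 2,5-D roots, against 3.05 and 4.29 in water roots (log2 change 2.16, SE 0.18, adjusted p = 4.84e-05). WRKY66 (AT1G80590) was under 1 in both water libraries and had 5.84 and 6.27 in 2,5-D roots, against 0.85 and 0.900 in water roots (log2 change 1.91, SE 0.17, adjusted p = 6.44e-05). In each, both 2,5-D libraries lay far above the water libraries. The single WRKY gene that fell was WRKY39 (AT3G04670), with 24.1 and 25 in 2,5-D roots, against 43 and 48.7 in water roots (log2 change -0.87). NAC055 (AT3G15500), a stress regulator in abscisic acid and jasmonate responses, had 62.3 and 59.3 in 2,5-D roots, against 19.2 and 18.4 in water roots (log2 change 1.64, SE 0.15, adjusted p = 7.58e-05). NAC032 (AT1G77450) had 77.6 and 79.6 in 2,5-D roots, against 25.1 and 25.2 in water roots (log2 change 1.6, SE 0.15, adjusted p = 8.16e-05). Replicates of both NAC genes were close to each other in each group. ORS1 (AT3G29035), a regulator of leaf senescence, was the NAC gene that fell, with 4.37 and 3.32 in 2,5-D roots, against 5.9 and 6.01 in water roots (log2 change -0.53, adjusted p = 0.0256).

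MYB78 (AT5G49620) had 27.3 and 28.1 in 2,5-D roots, against 5.43 and 5.27 in water roots (log2 change 2.18, SE 0.15, adjusted p = 2.39e-05). MYB108 (AT3G06490), also named BOS1 from its role in resistance to Botrytis, had 39.9 and 39.4 in 2,5-D roots, against 9.81 and 9.91 in water roots (log2 change 1.91, SE 0.15, adjusted p = 3.73e-05). Replicates of both genes were nearly equal within each group, and the groups did not overlap. The largest fall of a transcription factor was that of MYB59 (AT5G59780), a regulator of the nitrate and potassium carrier gene NRT1.5, which had 13.1 and 13.7 in 2,5-D roots, against 50.9 and 66.8 in water roots (log2 change -2.04, SE 0.18, adjusted p = 5.22e-05). MYB45 (AT3G48920) was low in every library, with 1.18 and 0.71 in 2,5-D roots, against 2.62 and 4.07 in water roots (log2 change -1.15). WRKY factors called higher numbered 10 without 2,5-D replicate 1 and 12 without 2,5-D replicate 2. MYB factors called higher numbered 8 without 2,5-D replicate 1 and 13 without 2,5-D replicate 2. MYB factors called lower numbered 4 with a filter at a mean of at least 5. ORS1 missed the threshold without 2,5-D replicate 2 (adjusted p = 0.188).

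In the AP2/ERF family, whose members bind GCC-box and dehydration elements, 17 of 30 rose and 7 fell, with a median of 0.73. ABR1 (AT5G64750), a repressor in abscisic acid responses, had 168 and 173 in 2,5-D roots, against 43.3 and 26.7 in water roots (log2 change 2.29, SE 0.22, adjusted p = 8.17e-05). AT1G22810 had 133 and 116 in 2,5-D roots, against 27.1 and 29.3 in water roots (log2 change 2.1, SE 0.16, adjusted p = 3.73e-05). Both were abundant in 2,5-D roots and separate from water. ERF104 (AT5G61600), an ethylene response factor that acts in immunity, went the other way, with 103 and 109 in 2,5-D roots, against 287 and 207 in water roots (log2 change -1.2, SE 0.19, adjusted p = 0.000885). CRF11 (AT3G25890), of the cytokinin response factor group, was also lower and had 2.49 and 2.52 in 2,5-D roots, against 5.71 and 9.33 in water roots (log2 change -1.25).

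C2H2 zinc finger genes had the highest list median, 1.05, with 8 higher and 4 lower of 13. AT3G46070 had 38.7 and 27.2 in 2,5-D roots, against 5.64 and 5.84 in water roots (log2 change 2.31, SE 0.19, adjusted p = 4.33e-05). AT3G53600 had 124 and 115 in 2,5-D roots, against 30.8 and 33.8 in water roots (log2 change 1.86). In both genes each 2,5-D library was above each water library. Of those that fell, AT5G10970 had 0.43 and 0.55 in 2,5-D roots, against 3.1 and 4.08 in water roots (log2 change -1.62), and was under 1 in both 2,5-D libraries. AT5G43540 had 4.41 and 4.25 in 2,5-D roots, against 13.2 and 15.2 in water roots (log2 change -1.51).

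Factors of bHLH and homeodomain type were divided, with 9 higher and 6 lower of 18 bHLH genes and 7 higher and 5 lower of 14 homeodomain genes. The bHLH gene AT4G20970 was close to 0 in water roots, with 3.77 and 6.62 in 2,5-D roots, against 0.0900 and 0.47 in water roots (log2 change 2.25). AT2G22760 had 183 and 167 in 2,5-D roots, against 65 and 67.1 in water roots (log2 change 1.39). HB17 (AT2G01430), a homeobox-leucine zipper factor, had 40.1 and 35.1 in 2,5-D roots, against 14.2 and 16.8 in water roots (log2 change 1.23). Its family partner HB18 (AT1G70920) rose too and had 23.6 and 17.9 in 2,5-D roots, against 8.9 and 6.92 in water roots (log2 change 1.28). Among the genes that fell were regulators of vascular tissue. TMO5 (AT3G25710, listed as BHLH32), which drives cell divisions in the young vascular cylinder, had 8.15 and 9.0 in 2,5-D roots, against 19.4 and 21.7 in water roots (log2 change -1.17, SE 0.16, adjusted p = 0.000404). WOX4 (AT1G46480), a regulator of stem cell division in the cambium, had 3.98 and 4.9 in 2,5-D roots, against 9.11 and 11.4 in water roots (log2 change -1.05, SE 0.18, adjusted p = 0.00123). Each was lower in both 2,5-D libraries than in either water library. AT5G09460, listed as bHLH143, was also lower and had 9.37 and 11 in 2,5-D roots, against 22.3 and 21.9 in water roots (log2 change -1.05). ATHB13 (AT1G69780), a homeobox-leucine zipper factor, had 6.33 and 5.49 in 2,5-D roots, against 11.3 and 14.9 in water roots (log2 change -1.02). bHLH factors called higher numbered 3 without 2,5-D replicate 1. Homeodomain factors called higher numbered 4 without 2,5-D replicate 1.

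**Figure D4:**
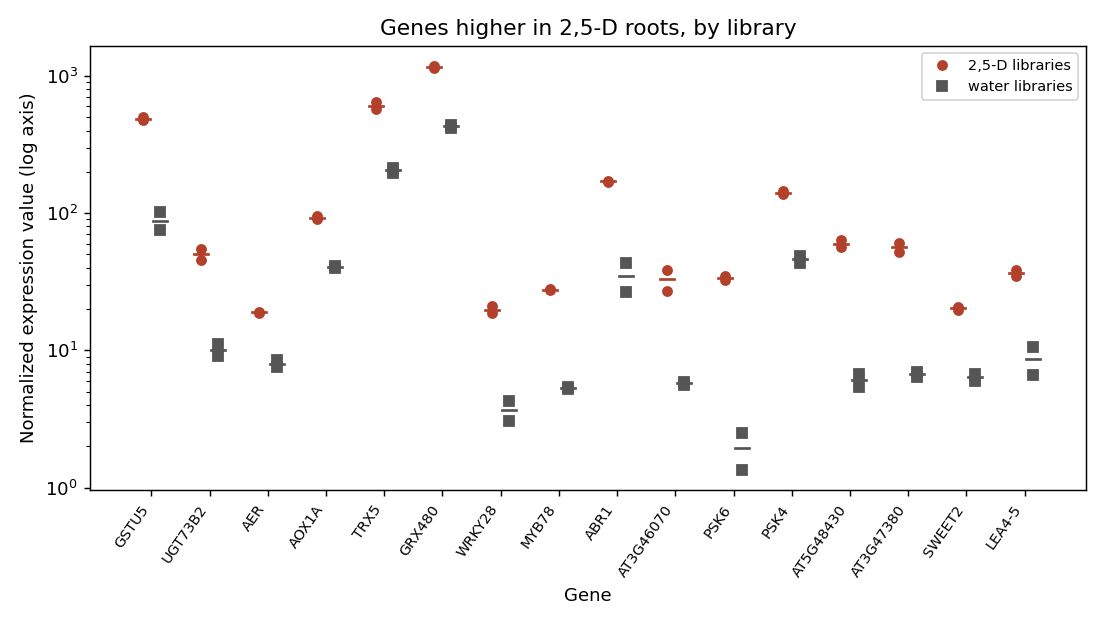
Points give the normalized expression value (log axis) of 16 genes called higher in each 2,5-D library (circles, left of each pair) and each water library (squares), with a bar at each group's mean. In each of these genes both 2,5-D libraries lie above both water libraries, from AER (19.1 and 18.8 against 7.53 and 8.51) to PSK6 (32.6 and 34.6 against 1.35 and 2.52).

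Receptor-like kinases, which sense peptides, sugars and microbial molecules at the cell surface, moved by class. Over the whole list 24 rose and 41 fell of 101, with 18 more below the filter. Leucine-rich repeat kinases made up most of the falls, with 36 lower and 3 higher of 54 and a median of -0.82. Lectin receptor kinases gave 13 higher and 2 lower of 29, with a median of 0.4. Of 16 cysteine-rich receptor kinases, 6 passed the filter, and 4 of these rose. Leucine-rich repeat kinase genes are long, with a median exonic length of 3387 bases, and their median change was -0.77 with the length trend removed; for lectin receptor kinases it was 0.33.

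BAM3 (AT4G20270), a receptor for the peptide CLE45 in developing phloem, had 4.07 and 5.0 in 2,5-D roots, against 16.4 and 20.0 in water roots (log2 change -1.79, SE 0.17, adjusted p = 8.37e-05). PXY (AT5G61480), the receptor for the peptide TDIF that maintains the cambium and acts upstream of WOX4, had 4.11 and 4.68 in 2,5-D roots, against 11.4 and 15.5 in water roots (log2 change -1.41, SE 0.18, adjusted p = 0.000347). For both, each 2,5-D library was well below each water library. LecRK-VII.2 (AT4G28350), a lectin receptor kinase, had 8.28 and 9.84 in 2,5-D roots, against 1.81 and 1.76 in water roots (log2 change 1.85, SE 0.17, adjusted p = 7.19e-05). AT5G48540, annotated as related to receptor-like kinases, had 96.4 and 89.9 in 2,5-D roots, against 25.2 and 30.6 in water roots (log2 change 1.71, SE 0.17, adjusted p = 8.94e-05). These 2 were higher in each 2,5-D library than in either water library.

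Intracellular immune receptors of the TIR and NB-ARC classes mostly did not pass: 9 rose, 2 fell and 30 were not called of 41, both shares under the background. AT1G66090 had 40.5 and 41.8 in 2,5-D roots, against 17.3 and 15.8 in water roots (log2 change 1.27). AT5G58120 had 19.4 and 16.6 in 2,5-D roots, against 7.81 and 6.06 in water roots (log2 change 1.26). Of the genes that fell, AT5G35450 had 4.17 and 4.8 in 2,5-D roots, against 7.93 and 9.09 in water roots (log2 change -0.79). The change of AT5G40910 was small, at 12.3 and 12.2 in 2,5-D roots, against 16.9 and 16.4 in water roots (log2 change -0.42, adjusted p = 0.0357).

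Calcium sensors were called higher at close to the background rate: 17 of 39 rose (43.6%, beside 39% over all tested genes) and 3 fell (7.69%, beside 22.5%), and EF-hand and calmodulin-like proteins gave 9 higher and 1 lower of 19. CML39 (AT1G76640), a calmodulin-like protein, was abundant and had 706 and 624 in 2,5-D roots, against 245 and 215 in water roots (log2 change 1.53, SE 0.16, adjusted p = 0.000139). The EF-hand gene AT1G21550 had 21.8 and 19.6 in 2,5-D roots, against 5.16 and 3.84 in water roots (log2 change 1.99, SE 0.17, adjusted p = 5.98e-05). Its counterpart in the other direction was AT3G10190, also an EF-hand gene, with 9.38 and 8.92 in 2,5-D roots, against 38.1 and 63 in water roots (log2 change -2.3, SE 0.22, adjusted p = 8.38e-05). The water libraries of AT3G10190 were apart from each other, and both 2,5-D libraries lay far below them. AT1G49580, a calcium-dependent protein kinase gene, had 9.58 and 11.4 in 2,5-D roots, against 19.9 and 22.4 in water roots (log2 change -0.95). Receptor-like kinases called higher numbered 14 without 2,5-D replicate 1 and 12 without 2,5-D replicate 2. Lectin receptor kinases called higher numbered 8 without 2,5-D replicate 2. Cysteine-rich receptor kinases called higher numbered 0 without 2,5-D replicate 1 or without 2,5-D replicate 2 and 2 without water replicate 2 or with equal medians or with no filter on low values. TIR and NB-ARC immune receptors called higher numbered 5 without 2,5-D replicate 1. Calcium binding and calmodulin-like called higher numbered 7 without 2,5-D replicate 1 and 8 without 2,5-D replicate 2. EF-hand and calmodulin-like proteins called higher numbered 4 without 2,5-D replicate 1 or without 2,5-D replicate 2 and 14 without water replicate 1. AT5G40910 missed the threshold once the length trend was removed (adjusted p = 0.0955), without water replicate 1 (adjusted p = 0.0706), without water replicate 2 (adjusted p = 0.0508), without 2,5-D replicate 1 (adjusted p = 0.136) and without 2,5-D replicate 2 (adjusted p = 0.143).

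All 5 phytosulfokine precursor genes in the table rose, beside 39% of all tested genes. As the table is treated as a list picked on these same libraries, a precursor that did not change could be missing from it. Phytosulfokine is a short sulfated peptide, cut from these precursors outside the cell, that promotes cell expansion and tempers immune responses through a leucine-rich repeat receptor. PSK6 (AT4G37720) showed the largest change of the family, with 32.6 and 34.6 in 2,5-D roots, against 1.35 and 2.52 in water roots (log2 change 3.59, SE 0.2, adjusted p = 1.33e-05). PSK4 (AT3G49780) had 144 and 137 in 2,5-D roots, against 43.6 and 48.5 in water roots (log2 change 1.59, SE 0.16, adjusted p = 0.000103). PSK2 (AT2G22860) was the most abundant and had 1257 and 1142 in 2,5-D roots, against 646 and 378 in water roots (log2 change 1.28, SE 0.23, adjusted p = 0.00166). Its water libraries differed from each other more than its 2,5-D libraries did, and the groups did not overlap. PSK5 (AT5G65870) had 26.5 and 27.5 in 2,5-D roots, against 15.8 and 15.3 in water roots (log2 change 0.76, SE 0.15, adjusted p = 0.00236). PSK1 (AT1G13590) had the smallest change, with 32.4 and 37.5 in 2,5-D roots, against 26.8 and 23.6 in water roots (log2 change 0.46, SE 0.16, adjusted p = 0.0355). The whole list of signal peptides, which also holds RALF and CLE genes, gave 15 higher and 0 lower of 20. These are short genes, with a median exonic length of 797 bases. With the length trend removed 7 of the 20 were higher and 3 lower, beside 934 higher and 1004 lower of all 3487 tested genes. Signal peptides called higher numbered 6 without 2,5-D replicate 1, 7 without 2,5-D replicate 2 or once the length trend was removed and 9 with equal medians. PSK1 missed the threshold with no filter on low values, with equal medians (adjusted p = 0.0834), once the length trend was removed (adjusted p = 0.346), without water replicate 2 (adjusted p = 0.0582), without 2,5-D replicate 1 (adjusted p = 0.0991) and without 2,5-D replicate 2 (adjusted p = 0.245).

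Genes of protein turnover moved in both directions. F-box, RING and U-box proteins, which choose targets for ubiquitin, gave 36 higher and 14 lower of 66 (54.5% and 21.2%). Proteases with their inhibitors gave 16 higher and 12 lower of 39 (41% and 30.8%). Over all tested genes the shares were 39% higher and 22.5% lower, so the share of proteases called higher was near the background. The aspartyl protease gene AT5G48430 had a large rise, with 56.4 and 63.5 in 2,5-D roots, against 5.44 and 6.74 in water roots (log2 change 3.11, SE 0.17, adjusted p = 1.33e-05). AT5G43570, a serine protease inhibitor of the potato type, had 26 and 26.9 in 2,5-D roots, against 6.84 and 12.9 in water roots (log2 change 1.39). A different aspartyl protease gene, AT3G20015, fell and had 5.54 and 5.65 in 2,5-D roots, against 18 and 23.3 in water roots (log2 change -1.71). ATSBT5.2 (AT1G20160), a subtilase, had 19.1 and 19.8 in 2,5-D roots, against 37.7 and 42.8 in water roots (log2 change -1.01). The aspartyl protease family thus held members of both directions. The RING gene AT3G61390 had 6.26 and 4.7 in 2,5-D roots, against 1.2 and 0.700 in water roots (log2 change 1.73). AT5G05530, also of RING type, had 8.69 and 9.11 in 2,5-D roots, against 1.88 and 3.39 in water roots (log2 change 1.48). Both exceeded water in each 2,5-D library. ATL78 (AT1G49230) fell to near the filter, with 1.32 and 1.28 in 2,5-D roots, against 6.02 and 9.49 in water roots (log2 change -1.9). AT4G24015 had 6.02 and 7.4 in 2,5-D roots, against 22.4 and 18.2 in water roots (log2 change -1.47). F-box, RING and U-box proteins called higher numbered 9 without 2,5-D replicate 1, 14 without 2,5-D replicate 2 and 22 once the length trend was removed. Proteases and protease inhibitors called higher numbered 7 without 2,5-D replicate 1 and 9 without 2,5-D replicate 2. Proteases and protease inhibitors called lower numbered 7 without 2,5-D replicate 1.

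Genes listed as protective in dry or osmotically stressed tissue were mostly higher. Of 21 tested osmolyte enzymes and LEA proteins, 15 rose (71.4%) and 1 fell; of the 69 as first matched, 37 rose and 9 fell. LEA proteins and dehydrins, which shield other proteins and membranes during water loss, gave 11 higher and 1 lower of 13, and genes whose product names hold galactinol, raffinose or trehalose gave 4 higher and 0 lower of 8. Trehalose-6-phosphate phosphatases are not in that count, since their product names put them in no list: TPPD (AT1G35910), TPPI (AT5G10100) and TPPJ (AT5G65140) rose, with log2 changes of 0.8, 1.13 and 0.78, TPPH (AT4G39770) fell (-1.73), and TPPG (AT4G22590), at 0.48, did not pass the test. These 5 were looked up by symbol after values had been seen. LEA4-5 (AT5G06760) had 38.5 and 35 in 2,5-D roots, against 10.6 and 6.62 in water roots (log2 change 2.0, SE 0.21, adjusted p = 0.000116). M10 (AT2G41280) had 5.73 and 7.17 in 2,5-D roots, against 0.87 and 1.1 in water roots (log2 change 1.9, SE 0.18, adjusted p = 8.37e-05). In both the 2,5-D libraries were alike and above water. The LEA-related gene AT3G19430 fell, with 10.3 and 10.9 in 2,5-D roots, against 16.2 and 20.5 in water roots (log2 change -0.73). Osmolytes and LEA proteins called higher numbered 9 without 2,5-D replicate 1 and 7 without 2,5-D replicate 2. LEA proteins and dehydrins called higher numbered 7 without 2,5-D replicate 1 or once the length trend was removed and 6 without 2,5-D replicate 2. Galactinol, raffinose and trehalose enzymes called higher numbered 2 without 2,5-D replicate 1 or with equal medians, 1 without 2,5-D replicate 2 and 7 without water replicate 1. AT3G19430 missed the threshold without 2,5-D replicate 1 (adjusted p = 0.0542).

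Antimicrobial and lectin proteins gave 18 higher and 10 lower of 36, with chitinases, which cut fungal walls, at 4 higher and 1 lower of 7. AT4G36010, a thaumatin-like protein of the pathogenesis-related class, had 178 and 169.6 in 2,5-D roots, against 82.7 and 51.4 in water roots (log2 change 1.4, SE 0.22, adjusted p = 0.00084). The mannose-binding lectin gene AT3G59620 had 8.52 and 10.1 in 2,5-D roots, against 3.3 and 1.15 in water roots (log2 change 1.76). Its water libraries were apart from each other, and both lay under the 2,5-D libraries. AT3G51710, a mannose-binding lectin gene too, fell and had 2.19 and 2.4 in 2,5-D roots, against 8.12 and 7.89 in water roots (log2 change -1.45). PR-1-LIKE (AT2G19990) had 8.43 and 5.49 in 2,5-D roots, against 13.7 and 18.4 in water roots (log2 change -1.11). Antimicrobial and lectin proteins called higher numbered 7 without 2,5-D replicate 1 and 10 without 2,5-D replicate 2.

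Ribosomal protein genes were lower as a group by small amounts. No gene of 81 rose, 31 fell (38.3%), and 80 had a negative log2 change, with a median of -0.38 and a range of -0.82 to 0.26. The count depended on the settings in either direction: 58 were lower with equal medians and 78 with the length trend removed, and 1 without 2,5-D replicate 1 as well as without 2,5-D replicate 2, against 52 without water replicate 1. None was called higher in any of these settings, and none in the other alternatives that were run. The gene AT3G44590, of the acidic proteins of the large subunit, had 65.1 and 65.2 in 2,5-D roots, against 101 and 114 in water roots (log2 change -0.71, SE 0.16, adjusted p = 0.00397). PSRP3/1 (AT1G68590), a plastid ribosomal protein, had the most negative change, with 7.35 and 3.67 in 2,5-D roots, against 8.62 and 11.6 in water roots (log2 change -0.82, SE 0.26, adjusted p = 0.0227). The 2,5-D libraries of PSRP3/1 were far apart, and those of AT3G44590 nearly equal. AT3G44590 missed the threshold without 2,5-D replicate 1 (adjusted p = 0.0779) and without 2,5-D replicate 2 (adjusted p = 0.0734). PSRP3/1 missed the threshold with no filter on low values and without 2,5-D replicate 2 (adjusted p = 0.212).

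Cell division genes were lower where they were called, except for tubulin and a histone. Of 30 tested, 2 rose and 10 fell, and cyclins with cyclin-dependent kinases, which drive the cell cycle, gave 0 higher and 6 lower of 8. CYCB1;1 (AT4G37490), a cyclin of dividing cells in the meristem, had 3.31 and 4.33 in 2,5-D roots, against 7.76 and 8.8 in water roots (log2 change -0.95, SE 0.18, adjusted p = 0.00177). CYCA1;1 (AT1G44110) had 2.75 and 2.97 in 2,5-D roots, against 6.19 and 6.74 in water roots (log2 change -0.95). CYCP3;2 (AT3G60550), of a separate cyclin group, had 16.5 and 15 in 2,5-D roots, against 32.5 and 32 in water roots (log2 change -0.99). All 3 were lower in each 2,5-D library than in either water library. Core histones gave 1 higher and 1 lower of 15, with a median of 0.12 that was -0.18 with the length trend removed. Their counts were 0 higher and 4 lower with the length trend removed, 0 and 2 with equal medians, 3 and 2 without water replicate 1, and 0 and 0 without 2,5-D replicate 1 or without 2,5-D replicate 2. HTA13 (AT3G20670), a histone H2A, had 121 and 135 in 2,5-D roots, against 102 and 77.9 in water roots (log2 change 0.51, adjusted p = 0.0335). TUA1 (AT1G64740), an alpha-tubulin, had 50.9 and 48.9 in 2,5-D roots, against 24.4 and 29.2 in water roots (log2 change 0.88). Histones and cell division called lower numbered 6 without 2,5-D replicate 1. HTA13 missed the threshold with no filter on low values, with equal medians (adjusted p = 0.0852), once the length trend was removed (adjusted p = 0.372), without 2,5-D replicate 1 (adjusted p = 0.151) and without 2,5-D replicate 2 (adjusted p = 0.263).

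Cell wall enzymes were lower in 2,5-D roots more often than the background, by class. Laccases and lignin enzymes gave 15 lower and 5 higher of 21 (71.4% lower), pectin enzymes 18 lower and 6 higher of 27, and cellulose and hemicellulose enzymes 26 lower and 10 higher of 43. Their median log2 changes were -0.92, -0.89 and -0.78 in the same order. Within them, laccases, which polymerize lignin, gave 6 lower of 7, dirigent-like proteins 8 lower of 11 and expansins, which loosen walls, 8 lower of 11. Class III peroxidases were called in all 18 members kept, 9 higher and 9 lower, beside 61.5% of all tested genes called. As first matched, before 3 matches were dropped, 10 were higher and 9 lower of 21.

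LAC4 (AT2G38080, listed as IRX12), a laccase of xylem lignin, had 5.4 and 4.95 in 2,5-D roots, against 13.7 and 14.7 in water roots (log2 change -1.3, SE 0.16, adjusted p = 0.000233). LAC3 (AT2G30210), a laccase tied to the lignin of the Casparian strip, had 10.3 and 11 in 2,5-D roots, against 28.9 and 38.2 in water roots (log2 change -1.56, SE 0.18, adjusted p = 0.000171). In both genes the 2,5-D libraries were alike and below each water library. In the opposite direction, CCOAMT (AT1G67980), a methyltransferase of the type that acts in lignin synthesis, had 12.6 and 14.4 in 2,5-D roots, against 2.64 and 4.16 in water roots (log2 change 1.74, SE 0.2, adjusted p = 0.000172). The dirigent-like gene AT1G22900 had 6.65 and 4.12 in 2,5-D roots, against 2.11 and 1.91 in water roots (log2 change 1.06).

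Of the named pectin genes, PME3 (AT3G14310), which removes methyl groups from pectin, fell, with 107 and 132 in 2,5-D roots, against 263 and 278 in water roots (log2 change -1.18, SE 0.17, adjusted p = 0.000563). AT4G24780, of the pectin lyase-like family, had 10.3 and 13.3 in 2,5-D roots, against 28.8 and 55.9 in water roots (log2 change -1.7). The named genes that rose were both annotated to the superfamily of invertase and pectin methylesterase inhibitors. AT3G47380 had 52.1 and 60.9 in 2,5-D roots, against 6.41 and 7.01 in water roots (log2 change 2.9, SE 0.16, adjusted p = 1.33e-05). AT5G62360 had 327 and 235 in 2,5-D roots, against 90.6 and 69 in water roots (log2 change 1.8, SE 0.21, adjusted p = 0.000196). In both, the lower 2,5-D library was far above the higher water library.

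BXL2 (AT1G02640), a beta-xylosidase that trims wall sugars, had 7.86 and 10.1 in 2,5-D roots, against 36.7 and 40.4 in water roots (log2 change -2.0, SE 0.17, adjusted p = 5.12e-05). EXPA15 (AT2G03090), an expansin, had 7.47 and 10.6 in 2,5-D roots, against 29.1 and 38.3 in water roots (log2 change -1.8, SE 0.2, adjusted p = 0.000171). Each 2,5-D library of both genes was well below each water library. MAN1 (AT1G02310), a mannanase, rose and had 77 and 70.7 in 2,5-D roots, against 26.9 and 17 in water roots (log2 change 1.74). AT4G30380, annotated as a Barwin-related endoglucanase, had 8.97 and 7.27 in 2,5-D roots, against 2.09 and 3.03 in water roots (log2 change 1.36). Of the peroxidases, which act on lignin and on reactive oxygen in the wall, PER4 (AT1G14540) had 44.2 and 47.3 in 2,5-D roots, against 16.8 and 11.3 in water roots (log2 change 1.66). Its neighbour AT1G14550 had 14.9 and 19.6 in 2,5-D roots, against 4.63 and 2.34 in water roots (log2 change 2.06). As these adjoining genes are close copies, their separate values are uncertain. AT2G18980 fell, with 20.9 and 27.4 in 2,5-D roots, against 54.1 and 50.5 in water roots (log2 change -1.1). AT2G22420, also lower, had 5.19 and 5.16 in 2,5-D roots, against 11 and 13.1 in water roots (log2 change -1.08).

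Genes listed as structural wall proteins were higher in 22 and lower in 9 of 39. The list rests on product names, which do not show that each member acts in the wall. It holds 12 glycine-rich proteins, of which 7 were higher and 1 lower. The extensin-like gene AT1G26240 had 28.9 and 11.6 in 2,5-D roots, against 5.76 and 4.92 in water roots (log2 change 1.62), with its 2,5-D libraries far apart. GRP19 (AT5G07550), listed only by its name as a glycine-rich protein, had 5.38 and 3.11 in 2,5-D roots, against 1.01 and 0.400 in water roots (log2 change 1.61). AGP30 (AT2G33790), an arabinogalactan protein, fell and had 2.11 and 2.75 in 2,5-D roots, against 6.94 and 9.9 in water roots (log2 change -1.45). AT1G77400, an extensin-like gene, fell too, with 0.66 and 1.3 in 2,5-D roots, against 2.68 and 5.57 in water roots (log2 change -1.33). Laccases and lignin enzymes called higher numbered 2 without 2,5-D replicate 1 or without 2,5-D replicate 2 or once the length trend was removed and 3 with equal medians. Pectin enzymes called higher numbered 3 without 2,5-D replicate 2. Cellulose and hemicellulose enzymes called higher numbered 3 without 2,5-D replicate 1 or without 2,5-D replicate 2 and 6 without water replicate 2 or with equal medians or once the length trend was removed or with no filter on low values. Cellulose and hemicellulose enzymes called lower numbered 16 without 2,5-D replicate 1. Class III peroxidases called higher numbered 5 without 2,5-D replicate 1 or without 2,5-D replicate 2 or once the length trend was removed. Wall structural proteins called higher numbered 7 without 2,5-D replicate 1, 14 without 2,5-D replicate 2 and 13 once the length trend was removed. Wall structural proteins called lower numbered 3 without 2,5-D replicate 1. AT1G22900 missed the threshold without 2,5-D replicate 1 (adjusted p = 0.0507). AT1G77400 missed the threshold without 2,5-D replicate 1 (adjusted p = 0.0584).

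Genes listed under suberin, wax and lipid transfer were divided, and aquaporins were lower. The list of suberin, wax and lipid transfer gave 14 higher and 15 lower of 41, with lipid transfer proteins at 8 lower of 16 and HXXXD acyltransferases at 6 higher of 11. Product names of the HXXXD genes described here give no substrate, so a part in barrier lipids is not shown for them. The adjoining acyltransferase genes AT5G07870 and AT5G07860, close copies, both rose. AT5G07870 had 93.7 and 69.8 in 2,5-D roots, against 18.2 and 17.6 in water roots (log2 change 2.12, SE 0.18, adjusted p = 5.12e-05). AT5G07860 had 28.4 and 21.8 in 2,5-D roots, against 5.64 and 6.29 in water roots (log2 change 1.89, SE 0.18, adjusted p = 7.31e-05). Other members fell, among them AT4G12510, of the lipid transfer class, which had 19.2 and 27.5 in 2,5-D roots, against 60.0 and 56.9 in water roots (log2 change -1.31). AT3G50300, a different HXXXD acyltransferase gene, had 2.74 and 3.34 in 2,5-D roots, against 6.91 and 10.7 in water roots (log2 change -1.26).

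Aquaporins, the water channels of cell membranes, gave 6 lower and 1 higher of 7, with a median of -0.78. PIP1;1 (AT3G61430, listed as PIP1A), of the plasma membrane type, had 184 and 186 in 2,5-D roots, against 378 and 430.1 in water roots (log2 change -1.12, SE 0.16, adjusted p = 0.000524). PIP2;4 (AT5G60660) had 16.3 and 20.0 in 2,5-D roots, against 35.2 and 30.2 in water roots (log2 change -0.82, SE 0.17, adjusted p = 0.00291). Each 2,5-D library was below each water library in both. TIP3;1 (AT1G73190), the channel of seed storage vacuoles, was the one that rose, and it was near 0 in water roots, with 4.34 and 3.23 in 2,5-D roots, against 0.39 and 0.35 in water roots (log2 change 1.79, SE 0.19, adjusted p = 0.000146). Suberin, wax and lipid transfer called higher numbered 6 without 2,5-D replicate 1, 7 without 2,5-D replicate 2, 8 with equal medians and 9 once the length trend was removed. Aquaporins called lower numbered 1 without 2,5-D replicate 1. Seed storage and lipid transfer proteins called lower numbered 5 without 2,5-D replicate 1 or without 2,5-D replicate 2. PIP2;4 missed the threshold without 2,5-D replicate 1 (adjusted p = 0.0603).

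Carriers of amino acids and sugars moved by family. Carriers of the UMAMIT family, several of which export amino acids from cells, gave 11 lower and 0 higher of 12, with a median of -1.08. SWEET carriers, which let sugars cross membranes, gave 3 higher and 1 lower of 4, and genes annotated as amino acid permeases or transporters 3 higher and 1 lower of 8. The permease count was 0 higher and 0 lower without 2,5-D replicate 1, and 5 higher without water replicate 1. UMAMIT20 (AT4G08290) had 3.1 and 4.7 in 2,5-D roots, against 14.2 and 16 in water roots (log2 change -1.73, SE 0.19, adjusted p = 0.000162). UMAMIT11 (AT2G40900) had 9.48 and 9.59 in 2,5-D roots, against 24.6 and 37.2 in water roots (log2 change -1.57, SE 0.2, adjusted p = 0.000329). Both were far lower in each 2,5-D library than in either water library. SWEET2 (AT3G14770), a sugar carrier of the root vacuole, rose, with 20.7 and 19.8 in 2,5-D roots, against 5.99 and 6.75 in water roots (log2 change 1.53, SE 0.16, adjusted p = 0.000108). SWEET14 (AT4G25010) had 4.79 and 4.3 in 2,5-D roots, against 1.75 and 1.06 in water roots (log2 change 1.22).

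Metal and ion carriers gave 13 higher and 11 lower of 34, shares of 38.2% and 32.4%. AT1G51090, annotated as a heavy metal transport or detoxification protein, had 85.5 and 71.6 in 2,5-D roots, against 21.8 and 18.1 in water roots (log2 change 1.92, SE 0.17, adjusted p = 6.75e-05). AT5G52690, annotated as a copper transport protein, had 6.79 and 8.02 in 2,5-D roots, against 3.9 and 0.51 in water roots (log2 change 1.62), with water libraries far apart. VTL2 (AT1G76800), of the vacuolar iron transporter family, fell, with 1.15 and 1.11 in 2,5-D roots, against 3.62 and 4.6 in water roots (log2 change -1.26). KUP8 (AT5G14880), a potassium transporter, had 9.18 and 10.6 in 2,5-D roots, against 22.2 and 27.4 in water roots (log2 change -1.24). Sugar and amino acid carriers called higher numbered 5 without 2,5-D replicate 1 or without 2,5-D replicate 2. Metal and ion carriers called higher numbered 5 without 2,5-D replicate 1 and 6 without 2,5-D replicate 2. Metal and ion carriers called lower numbered 7 without 2,5-D replicate 1 or with a filter at a mean of at least 5. AT5G52690 missed the threshold with no filter on low values, once the length trend was removed (adjusted p = 0.0523), without 2,5-D replicate 1 (adjusted p = 0.0688) and without 2,5-D replicate 2 (adjusted p = 0.0923).

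Markers of inner root cell types that were in the table were lower in 2,5-D roots, beside 22.5% of all tested genes. As the table is treated as a list picked on these same libraries, a marker that did not change could be missing from it. Of 5 endodermis markers, 3 were in the table and all 3 fell, with summed values of 57.8 and 72.9 in 2,5-D roots, against 128 and 121 in water roots. Of 8 stele and xylem markers, 4 were in the table and all 4 fell, with sums of 53.4 and 65.3 in 2,5-D roots, against 99.6 and 107 in water roots. For the phloem 1 of 3 markers was in the table, and for the meristem 1 of 3, and both fell. Of the 5 root hair and 2 non-hair epidermis markers, 0 were among the listed genes, so no outer layer marker stands beside the lower inner ones. The tissue label itself was not tested with these markers. Of 5 markers of green shoot tissue, 2 were in the table, with sums of 70.2 and 64.1 in 2,5-D roots, against 60.3 and 79.6 in water roots, and neither passed the test.

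CASP1 (AT2G36100), a scaffold protein of the Casparian strip that seals the endodermis, had 33.5 and 42 in 2,5-D roots, against 75.3 and 67.3 in water roots (log2 change -0.91, SE 0.17, adjusted p = 0.00204). Its relative CASP2 (AT3G11550) had 7.05 and 7.55 in 2,5-D roots, against 15 and 14.8 in water roots (log2 change -0.94, SE 0.15, adjusted p = 0.000984). ESB1 (AT2G28670), a dirigent-like protein needed for the lignin of that strip, had 17.3 and 23.3 in 2,5-D roots, against 38.1 and 39.3 in water roots (log2 change -0.91, SE 0.18, adjusted p = 0.00219). For these Casparian strip genes each 2,5-D library was below each water library. SHR (AT4G37650), the mobile factor that sets the inner layers of the root, had 5.61 and 8.32 in 2,5-D roots, against 14.9 and 14.1 in water roots (log2 change -0.98, SE 0.19, adjusted p = 0.00213). The secondary wall cellulose synthase CESA7 (AT5G17420, listed as IRX3) had 4.61 and 4.85 in 2,5-D roots, against 8.61 and 8.98 in water roots (log2 change -0.77). CESA4 (AT5G44030), its partner in the same complex, had 4.72 and 6.33 in 2,5-D roots, against 9.62 and 10.2 in water roots (log2 change -0.75). Groups did not overlap in any of these genes. XCP2 (AT1G20850), a xylem protease, had 38.5 and 45.8 in 2,5-D roots, against 66.5 and 73.5 in water roots (log2 change -0.72). SUC2 (AT1G22710), which loads sucrose into the phloem, had 21.4 and 22.2 in 2,5-D roots, against 32.7 and 35.9 in water roots (log2 change -0.63). The lower lignin, cellulose, cyclin, PXY, BAM3, WOX4 and TMO5 values above stand beside these marker values, and the part of cell type makeup in them was not tested. They are not all separate readouts. The marker ESB1 is also counted in the lignin list, CESA4 and CESA7 are counted in the cellulose list, and the meristem marker CYCB1;1 is the cyclin named above. ESB1 missed the threshold without 2,5-D replicate 1 (adjusted p = 0.052). CASP1 missed the threshold without 2,5-D replicate 1 (adjusted p = 0.0613). CESA4 missed the threshold without 2,5-D replicate 1 (adjusted p = 0.0638). XCP2 missed the threshold without 2,5-D replicate 1 (adjusted p = 0.109). SUC2 missed the threshold without 2,5-D replicate 1 (adjusted p = 0.0779) and without 2,5-D replicate 2 (adjusted p = 0.0581).

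**Figure D5:**
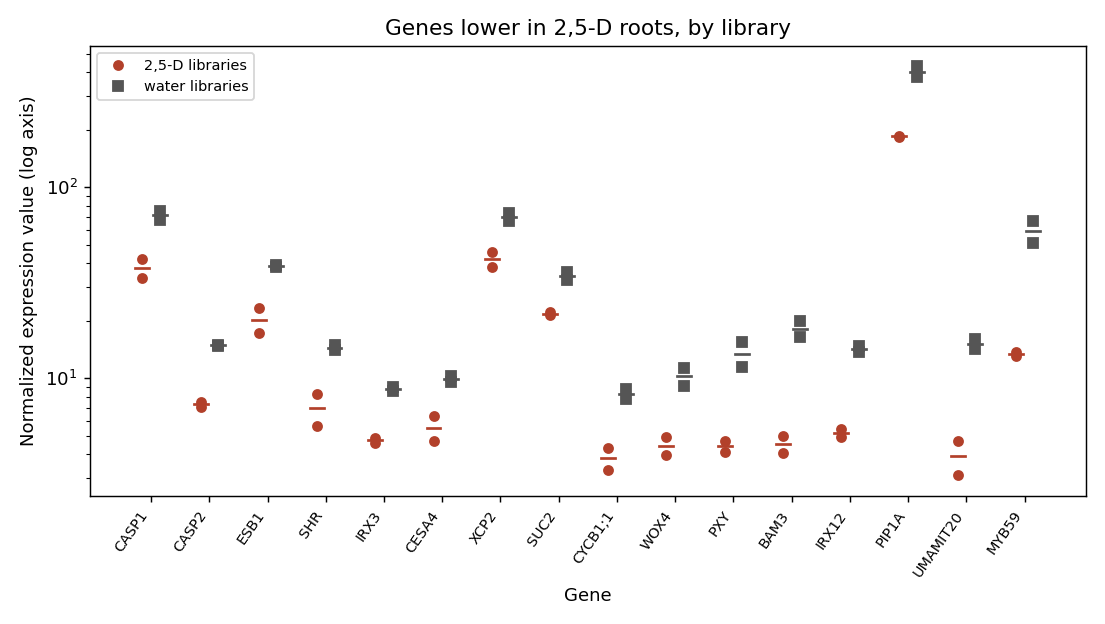
Points give the normalized expression value (log axis) of 16 genes called lower, including the cell type markers, in each 2,5-D library (circles, left of each pair) and each water library (squares), with a bar at each group's mean. Both 2,5-D libraries lie below both water libraries in each of these genes, from SUC2 (21.4 and 22.2 against 32.7 and 35.9) to MYB59 (13.1 and 13.7 against 50.9 and 66.8).

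Called genes in none of the lists, with heat shock, nitrate, ammonium and hormone genes set aside, numbered 1338. The 10 largest rises among them are given first. AT5G54165, annotated as an Avr9/Cf-9 rapidly elicited protein, had 91.2 and 80.9 in 2,5-D roots, against 14.7 and 8.88 in water roots (log2 change 2.8, SE 0.22, adjusted p = 3.73e-05). AT3G48450, of the family of the immune regulator RIN4, had 275 and 239 in 2,5-D roots, against 63.6 and 59.6 in water roots (log2 change 2.04, SE 0.16, adjusted p = 3.77e-05). VQ29 (AT4G37710), of the VQ proteins that partner with WRKY factors, was abundant, with 416 and 372 in 2,5-D roots, against 87.1 and 77.8 in water roots (log2 change 2.24, SE 0.16, adjusted p = 2.96e-05). All were higher in each 2,5-D library than in either water library. LBD1 (AT1G07900), a LOB domain factor, had 22.7 and 13.4 in 2,5-D roots, against 4.46 and 2.49 in water roots (log2 change 2.08). AT5G22200, annotated as an LEA hydroxyproline-rich glycoprotein, had 16.9 and 14.1 in 2,5-D roots, against 3.06 and 1.72 in water roots (log2 change 2.31). The cupredoxin gene AT2G15780 had 11.5 and 16.9 in 2,5-D roots, against 1.98 and 2.64 in water roots (log2 change 2.18). The next genes carry no function in the reference. AT4G28290 had 169 and 151 in 2,5-D roots, against 20.9 and 24.7 in water roots (log2 change 2.76). AT5G05220 had 28.4 and 26 in 2,5-D roots, against 4.2 and 5.06 in water roots (log2 change 2.33). AT2G31345 had 134 and 90.1 in 2,5-D roots, against 30.1 and 22.3 in water roots (log2 change 2.04). The last of the 10 was AT3G18950, a WD40 repeat gene, with 50.4 and 46.5 in 2,5-D roots, against 9.5 and 11.2 in water roots (log2 change 2.13).

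The largest fall of the table was in this group too. AT3G22970, a gene of unknown function with a DUF506 domain, had 7.76 and 6.17 in 2,5-D roots, against 31.6 and 51.9 in water roots (log2 change -2.39, SE 0.23, adjusted p = 8.17e-05). TPPH (AT4G39770), a trehalose-6-phosphate phosphatase, had 2.23 and 2.74 in 2,5-D roots, against 9.66 and 11.5 in water roots (log2 change -1.73, SE 0.17, adjusted p = 0.000103). AT3G45700, annotated as a carrier of the major facilitator superfamily, had 1.97 and 2.79 in 2,5-D roots, against 10.7 and 9.17 in water roots (log2 change -1.7, SE 0.18, adjusted p = 0.000147). In these, each 2,5-D library was well below each water library. AT1G03820, annotated as E6-like, had 5.77 and 6.13 in 2,5-D roots, against 22 and 28.2 in water roots (log2 change -1.9). The cupredoxin gene AT1G72230 had 6.24 and 5.16 in 2,5-D roots, against 19.9 and 20.9 in water roots (log2 change -1.68), so that family held members of both directions. AT2G28780, annotated as an efflux pump subunit, had 6.51 and 7.7 in 2,5-D roots, against 23.3 and 26.1 in water roots (log2 change -1.67). AT3G01260, a galactose mutarotase-like gene, had 5.39 and 5.98 in 2,5-D roots, against 16.2 and 23 in water roots (log2 change -1.6). The other 3 of the 10 largest falls, AT4G31330, AT3G45210 and AT1G08670, changed by -1.86, -1.67 and -1.58 on the log2 scale.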

How the data were processed

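Transcripts of the 4 root libraries were sequenced after library preparation from total RNA, per the labels' protocols. Reads were aligned with HISAT2 2.0.4, per the submitters' processing notes. The deposited values are a normalized signal per gene; their unit, the genome build, the annotation, the counting program, the read depth and the authors' rule for listing genes were not given in the sources used here. Every column of per-sample values was used, and the shoot table entered only the count of genes whose groups overlap.

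All 3691 locus tags matched the RefSeq annotation of TAIR10.1, which gave symbols, product names, exonic lengths and gene order; no coordinates are given, since the authors' build is not known. Promoter sequences, and a description of motifs in them, were not used here. For genes whose mean reached 1, log2(value + 1) was compared between 2 and 2 libraries in limma 3.58.1 (R 4.3.3), letting the variance follow the level, with Benjamini-Hochberg adjusted p-values; calls had an adjusted p under 0.05. An exact permutation test of 2 against 2 cannot give a p under 0.333, so none is given. The fit was also run on simulated data with 100 genes changed by 1 and 100 changed by 2 on the log2 scale, among 3473 tested. It called 59 of the former and 91 of the latter, with 2 false calls among 152. Far fewer genes changed there than were called here, so the simulation does not measure the error of the calls above. Alternatives were a pseudocount of 0.1, no filter, a filter at a mean of at least 5, equal medians, the length trend removed, no variance trend, the replicate number as a block, and each library left out in turn.

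The members and lists were chosen with earlier results of these data known. The 34 lists match product names, except the mitochondrial one, which is a list of loci. After their counts had been seen, 156 matches were dropped, as accidents of spelling or as genes judged to belong to another family, which also moved some genes among those in no list, and the 30 subgroups were set; the lists as first matched are an alternative added then. From each list the text names up to 2 called genes per direction with the largest change, provided that their mean reached 2 and their groups did not overlap, plus the 10 largest rises and falls in no list, the phytosulfokine precursors and the markers.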

Additional observations from a re-analysis of the deposited data

How the results depend on the processing

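The direction of change of the 153 named genes that were called was kept in each of the 11 refits in which they were tested, and 117 of them were called in each, counting a gene under the stricter filter as not called. The other 2 named genes, the uncalled green tissue markers, changed sign: CAB2 (AT1G29920) had a log2 change of 0.01, -0.10 with equal medians, -0.32 after removal of the length trend and -0.0076 to 0.035 with 1 library left out, and LHCA1 (AT3G54890) had -0.05, and -0.26 to 0.16 with 1 library left out. The counts over all tested genes, 2143 called with 1360 higher and 783 lower, became 1093 to 2512 called, 637 to 1610 higher and 456 to 902 lower when 1 library was left out. With 1 library left out, the lists whose count higher moved by over 1.5 times ranged as follows: UDP-glycosyltransferases 7 to 13, cytochromes P450 11 to 24, MATE and ABC exporters 2 to 8, reductases and aldehyde dehydrogenases 2 to 5, 2-oxoglutarate-dependent oxygenases 6 to 12, glutaredoxins and thioredoxins 2 to 7, mitochondrial stress genes 2 to 5, WRKY factors 10 to 23, MYB factors 8 to 19, bHLH factors 3 to 9, homeodomain factors 4 to 7, receptor-like kinases 12 to 33, TIR and NB-ARC immune receptors 5 to 10, calcium binding and calmodulin-like 7 to 25, signal peptides 6 to 17, F-box, RING and U-box proteins 9 to 40, proteases and protease inhibitors 7 to 17, histones and cell division 1 to 4, class III peroxidases 5 to 9, laccases and lignin enzymes 2 to 6, pectin enzymes 3 to 8, cellulose and hemicellulose enzymes 3 to 13, wall structural proteins 7 to 26, suberin, wax and lipid transfer 6 to 17, sugar and amino acid carriers 5 to 10, metal and ion carriers 5 to 18, osmolytes and LEA proteins 7 to 18, antimicrobial and lectin proteins 7 to 22. For counts lower these ranges were: glutathione transferases 1 to 3, cytochromes P450 6 to 14, MATE and ABC exporters 2 to 7, reductases and aldehyde dehydrogenases 0 to 1, glutaredoxins and thioredoxins 0 to 3, NAC factors 0 to 1, TIR and NB-ARC immune receptors 1 to 5, signal peptides 0 to 1, proteases and protease inhibitors 7 to 13, ribosomal proteins 1 to 52, histones and cell division 6 to 11, cellulose and hemicellulose enzymes 16 to 26, wall structural proteins 3 to 10, aquaporins 1 to 6, metal and ion carriers 7 to 11, osmolytes and LEA proteins 0 to 1. With equal medians the moved list counts were: glutathione transferases 2 lower, MATE and ABC exporters 4 higher, MATE and ABC exporters 10 lower, reductases and aldehyde dehydrogenases 2 higher, glutaredoxins and thioredoxins 3 higher, TIR and NB-ARC immune receptors 6 lower, signal peptides 9 higher, signal peptides 1 lower, ribosomal proteins 58 lower, histones and cell division 1 higher, laccases and lignin enzymes 3 higher, cellulose and hemicellulose enzymes 6 higher, suberin, wax and lipid transfer 8 higher. With the length trend removed the moved list counts were: glutathione transferases 4 lower, reductases and aldehyde dehydrogenases 2 higher, reductases and aldehyde dehydrogenases 1 lower, glutaredoxins and thioredoxins 3 higher, mitochondrial stress genes 2 higher, TIR and NB-ARC immune receptors 1 lower, signal peptides 7 higher, signal peptides 3 lower, F-box, RING and U-box proteins 22 higher, ribosomal proteins 78 lower, histones and cell division 1 higher, class III peroxidases 5 higher, laccases and lignin enzymes 2 higher, cellulose and hemicellulose enzymes 6 higher, wall structural proteins 13 higher, suberin, wax and lipid transfer 9 higher. With a filter at a mean of at least 5 the moved list counts were: UDP-glycosyltransferases 7 higher, MATE and ABC exporters 5 higher, NAC factors 0 lower, MYB factors 4 lower, aquaporins 0 higher, metal and ion carriers 7 lower. With the replicate block the moved list counts were: reductases and aldehyde dehydrogenases 1 lower. With no filter on low values the moved list counts were: TIR and NB-ARC immune receptors 4 lower, histones and cell division 1 higher, cellulose and hemicellulose enzymes 6 higher. With the lists as first matched, an alternative added after seeing the data, the counts that moved were 12 higher and 9 lower for homeodomain factors, 6 higher for histones and cell division, 37 higher and 9 lower for osmolytes and LEA proteins, and 31 higher and 18 lower for antimicrobial and lectin proteins, and 10 of the 141 genes that the rule took from the lists or from outside them would have been others. In the counts over all tested genes, the split of calls was 1360 higher and 783 lower as deposited, 1042 and 897 with equal medians, and 934 and 1004 after removal of the length trend, so the more frequent direction turned once the length trend was removed. The replicate block gave 1393 higher and 792 lower; deviations of same-numbered libraries correlated at -0.05, so the numbers are not shown to pair the libraries. The cause of these movements was not tested. Library depth is unknown, and 2 libraries a group limit the precision of each change.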

Other observations

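Among the named genes, 4 pairs stand next to each other in the annotation, and the genes of a pair do not overlap. PER4 (AT1G14540) and AT1G14550 had log2 changes of 1.66 and 2.06. AT5G07860 and AT5G07870 had 1.89 and 2.12. VQ29 (AT4G37710) and PSK6 (AT4G37720), of unrelated families, had 2.24 and 3.59. AT2G18980, a peroxidase gene, and TXND9 (AT2G18990) had -1.10 and -0.62. No test of neighbouring genes was run.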
